A study of Mus musculus with 15 samples.

Results

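Chemokines are small secreted proteins that guide the movement of leukocytes, and their receptors are G protein-coupled receptors on the cells that respond. The 54 chemokine and chemokine receptor genes of the arrays were described here across olfactory bulbs of mice with and without a manipulation of CRHR1. CRHR1 is a receptor of the stress peptide corticotropin-releasing hormone (CRH). Members were all genes whose array name begins with Ccl, Cxcl, Cx3cl, Xcl, Ccr, Cxcr or Xcr and a number, out of 46548 names on the arrays. Each was represented by its brightest probe, and they comprised 35 ligands and 19 receptors. The fractalkine receptor Cx3cr1 is not matched by this naming rule and is given among related genes further on.

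RNA of the whole bulb was measured in 15 male mice aged 6 to 8 weeks, 1 array per mouse and 5 mice per group. Each bulb was taken 2 weeks after injection of 500 nL of an adeno-associated virus. In the active CRHR1 group (CRHR-Cre;AAV-flex (CA)CRHR), C57Bl/6 mice expressing Cre in granule cells that have CRHR1 carried a virus for a constitutively active form of it. In the knockout group (CRHR1-/- KO;AAV-flex GFP), 129S4/SvJae mice null for CRHR1 carried a virus for GFP, and their labels name no Cre. In the Cre GFP group (CRHR-Cre;AAV-flex GFP), C57Bl/6 mice with the same Cre carried the GFP virus and served as pseudo-wild type. All 3 groups therefore share the injection and the viral vector. Both viral cargoes are Cre-dependent. In any comparison with the knockout group, strain, Cre and expression of the viral cargo cannot be told apart from loss of CRHR1.

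Slide 1 held knockout arrays 1 to 5 and Cre GFP arrays 1 to 3. Slide 2 held active CRHR1 arrays 1 to 5 and Cre GFP arrays 4 and 5. Levels are given on the log2 scale relative to the 75th percentile of signals, so that 0 marks the 75th percentile of that array, and a level of one probe says nothing about that of another. The 75th percentile lay between 664 and 1171 intensity units, and 58.7% to 66.9% of probes were well above background. Knockout array 5 had the lowest 75th percentile and knockout array 2 the largest share of probes above background, so results are also given without both where that ends a call. Crhr1 itself had a mean level of 3.72 in active CRHR1, 3.16 in knockout and 3.63 in Cre GFP bulbs, and where its probe lies relative to the deleted part was not determined. All 10 olfactory bulb markers examined were well above background on all 15 arrays.

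Chemokines are named for the spacing of their first cysteines, as CC, CXC, CX3C and XC. A functional split cuts across these families. Inflammatory chemokines are induced by interferons and NF-kB in glia, endothelium and leukocytes, whereas homeostatic ones such as Cxcl12, Cxcl14 and Cx3cl1 are made steadily by neurons, stroma or endothelium. Most receptors accept several ligands, and in the healthy brain most are carried by the few leukocytes present and by microglia.

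Many members lie side by side in the genome. With gaps of at most 500 kb between probes (build mm9), 34 of the 54 members fell into 8 runs of neighbours. On chromosome 11, chr11:81850650-81990227 held Ccl2, Ccl7, Ccl11, Ccl12, Ccl8 and Ccl1, and chr11:83339296-83478111 held Ccl5, Ccl9, Ccl6, Ccl3 and Ccl4. On chromosome 5, chr5:91190490-91334593 held the CXCR2 ligands Cxcl5, Cxcl3, Cxcl15, Cxcl1 and Cxcl2, and chr5:92752191-92788626 held the CXCR3 ligands Cxcl9, Cxcl10 and Cxcl11. On chromosome 9, a run of 8 receptor genes included Ccr9, Cxcr6, Xcr1, Ccr1, Ccr1l1, Ccr3 and Ccr2.

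The probes below are shown because the results of the CXCR3 ligands turn on what they read. Each has 60 bases and is written 5′ to 3′, and capitals mark bases in runs of at least 20 that are also present in a probe of another gene.
Cxcl9 (mm9 chr5:92752191-92752250, minus strand): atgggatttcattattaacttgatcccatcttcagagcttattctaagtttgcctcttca
Cxcl10 (mm9 chr5:92775781-92775840, minus strand): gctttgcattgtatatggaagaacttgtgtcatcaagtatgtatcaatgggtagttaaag
Cxcl11 (mm9 chr5:92788567-92788626, minus strand): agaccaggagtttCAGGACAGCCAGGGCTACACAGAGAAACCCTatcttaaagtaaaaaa
The Cxcl9 and Cxcl10 probes had no such run. The Cxcl11 probe shared 31 of its bases with 7 probes of 7 other genes, and runs of at least 20 of its bases were present in 22 promoters of other genes. Its signal therefore cannot be assigned to Cxcl11. None of the other 53 brightest probes held such a run.

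Promoters are shown for Cxcl10, Cxcl9 and Cxcl1, 3 genes of chromosome 5 that were higher in active CRHR1 bulbs, of which only Cxcl1 was called in knockout bulbs as well. They run from 250 bases before to 50 after the start of the gene (RefSeq, GRCm38.p6), and capitals mark 3 motifs searched on both strands. These were the interferon-stimulated response element GAAANNGAAA, the gamma-activated site TTCNNNGAA and the NF-kB consensus.
Cxcl10 (GRCm38.p6 chr5:92348840-92349139, minus strand): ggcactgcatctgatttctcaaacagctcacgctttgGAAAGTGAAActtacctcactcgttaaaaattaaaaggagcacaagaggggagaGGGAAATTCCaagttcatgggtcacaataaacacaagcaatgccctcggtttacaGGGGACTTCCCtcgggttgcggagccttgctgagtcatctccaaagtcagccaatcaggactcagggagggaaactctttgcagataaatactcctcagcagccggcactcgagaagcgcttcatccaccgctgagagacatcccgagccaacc
Cxcl9 (GRCm38.p6 chr5:92328030-92328329, minus strand): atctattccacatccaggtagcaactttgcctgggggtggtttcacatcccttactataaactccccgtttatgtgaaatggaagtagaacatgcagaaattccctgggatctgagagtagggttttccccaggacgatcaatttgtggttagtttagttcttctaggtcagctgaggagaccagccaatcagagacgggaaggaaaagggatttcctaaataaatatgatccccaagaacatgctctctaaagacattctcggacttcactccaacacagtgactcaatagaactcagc
Cxcl1 (GRCm38.p6 chr5:90890995-90891294, plus strand): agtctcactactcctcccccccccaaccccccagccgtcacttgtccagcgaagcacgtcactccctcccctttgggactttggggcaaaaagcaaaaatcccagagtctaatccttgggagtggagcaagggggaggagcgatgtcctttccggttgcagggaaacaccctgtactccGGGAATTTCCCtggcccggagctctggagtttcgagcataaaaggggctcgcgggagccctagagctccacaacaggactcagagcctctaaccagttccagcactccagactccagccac
The Cxcl10 window held the interferon element and, further towards the start, 3 NF-kB matches of which the last 2 overlap. The Cxcl1 window held 2 overlapping NF-kB matches and neither of the others, and these letters were absent from the Cxcl9 window. Of 32851 promoters of this length, 3.44% held the interferon element, 8.3% the gamma-activated site and 8.46% the NF-kB consensus. Promoters were found for 39 members. Of the 13 of these that were higher in active CRHR1 than in Cre GFP bulbs, 2 held the first motif, 0 the second and 3 the third. Of the 14 tested members not called higher, 1 held the first, 3 the second and 3 the third. Over all 39 members the numbers were 3, 4 and 11, so the NF-kB consensus was not particular to the higher members. A match is a description of the letters and not a site in use.

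Detection separated the members before any comparison. Of the 54, 29 were well above background on all 15 arrays, 12 on none and 13 on some. A member was tested if 4 or more of the 5 arrays in one of the groups had it well above background, which kept 38 members, 27 ligands and 11 receptors. Of the 8 ligands not tested, all had 0 arrays above background: the neutrophil attractants Cxcl2, Cxcl3 and Cxcl15, the eotaxins Ccl11 and Ccl26, the CCR4 ligand Ccl22, the CCR6 ligand Ccl20, and Cxcl17. The receptors Ccr1l1, Ccr4, Cxcr1 and Xcr1 had 0 arrays as well. Ccr1 was above background on 1 Cre GFP array, Ccr3 on 1 active CRHR1 and 1 knockout array, Cxcr5 on 1 active CRHR1 and 1 Cre GFP array, and Cxcr2 on 1 knockout array. Detection differed most between groups for 5 members: Cxcl13 on 5, 5 and 2 arrays in active CRHR1, knockout and Cre GFP bulbs, Cxcl1 on 4, 5 and 0, Ccr2 on 4, 3 and 0, and Xcl1 and Ccl1 on 4 active CRHR1 arrays but at most 2 of any other group. A second Ccl1 probe was above background on 3 active CRHR1, 3 knockout and 1 Cre GFP arrays.

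**Figure D1:**
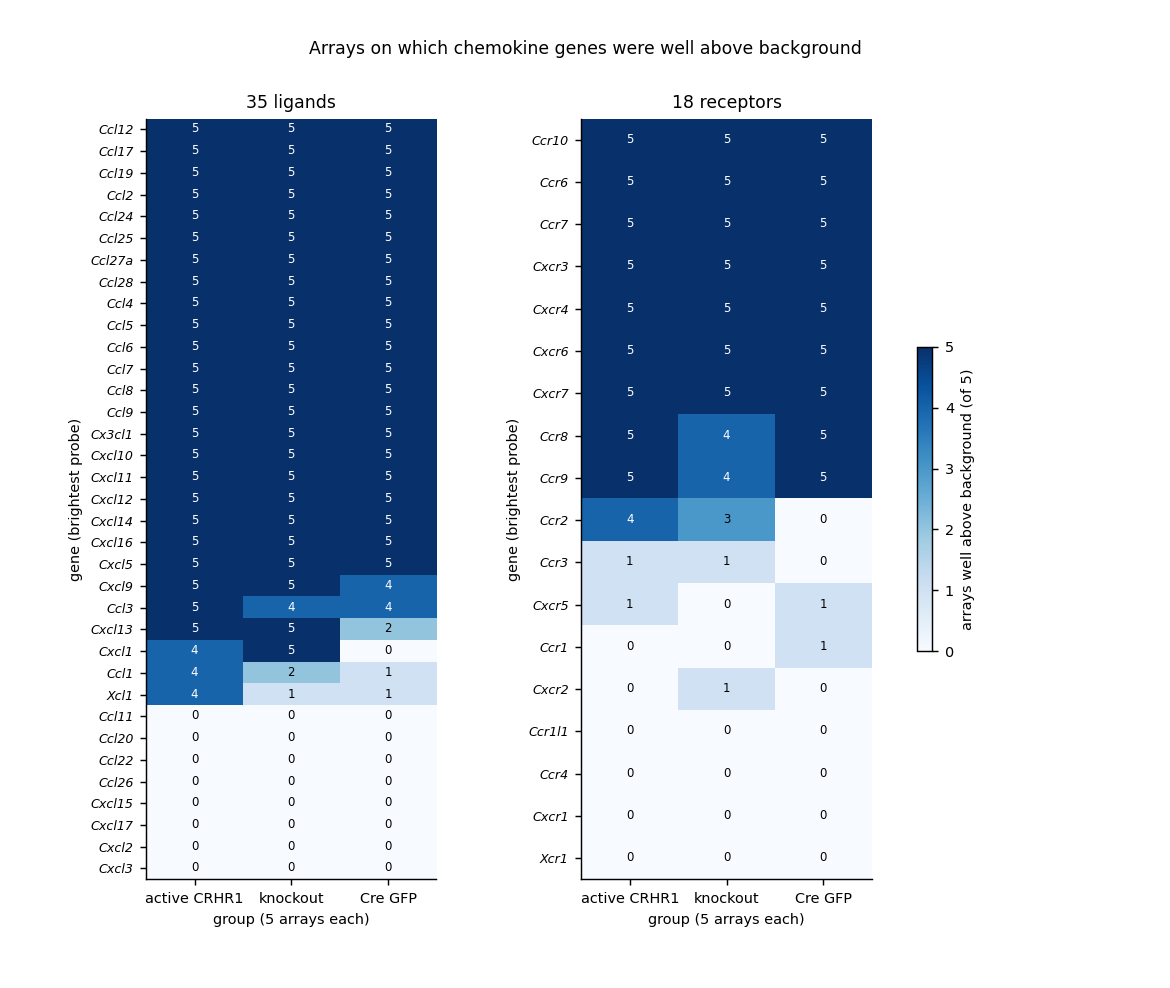
Number of arrays (of 5 per group) on which the brightest probe was well above background for 35 chemokine ligands (left) and 18 receptors (right), in active CRHR1, knockout and Cre GFP bulbs. Of the genes shown, 28 reached 5 arrays in every group and 12 reached 0, and Cxcl1 and Ccr2 had 0 Cre GFP arrays above background.

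Active CRHR1 and Cre GFP bulbs share strain and Cre, and differ in the viral cargo and, in part, in slide. Their comparison asks how bulbs given the active receptor differ from bulbs given GFP. Signalling through CRHR1 was not measured, and Crhr1 itself had a change of 0.09 (adjusted p = 0.546). Chemokine genes were mostly higher: of 38 tested members, 20 were higher and 1 lower at an adjusted p under 0.05, where 8.57% of all 27336 genes tested were called (3.9% higher and 4.67% lower). These were 16 ligands higher and 1 lower of 27, and 4 receptors higher of 11. The median log2 change was 1.37 over tested ligands and 0.82 over tested receptors, against -0.07 over all genes. In 12 members, 11 higher and Cxcl14 lower, the active CRHR1 and Cre GFP arrays did not overlap, where this held for 10.5% of all genes (3.27% higher). The filter that chose the tested members favours genes that are high in one group, so these counts describe the members and are no test of the family. In bulk RNA, more cells of a type and more RNA per cell cannot be told apart.

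**Figure D2:**
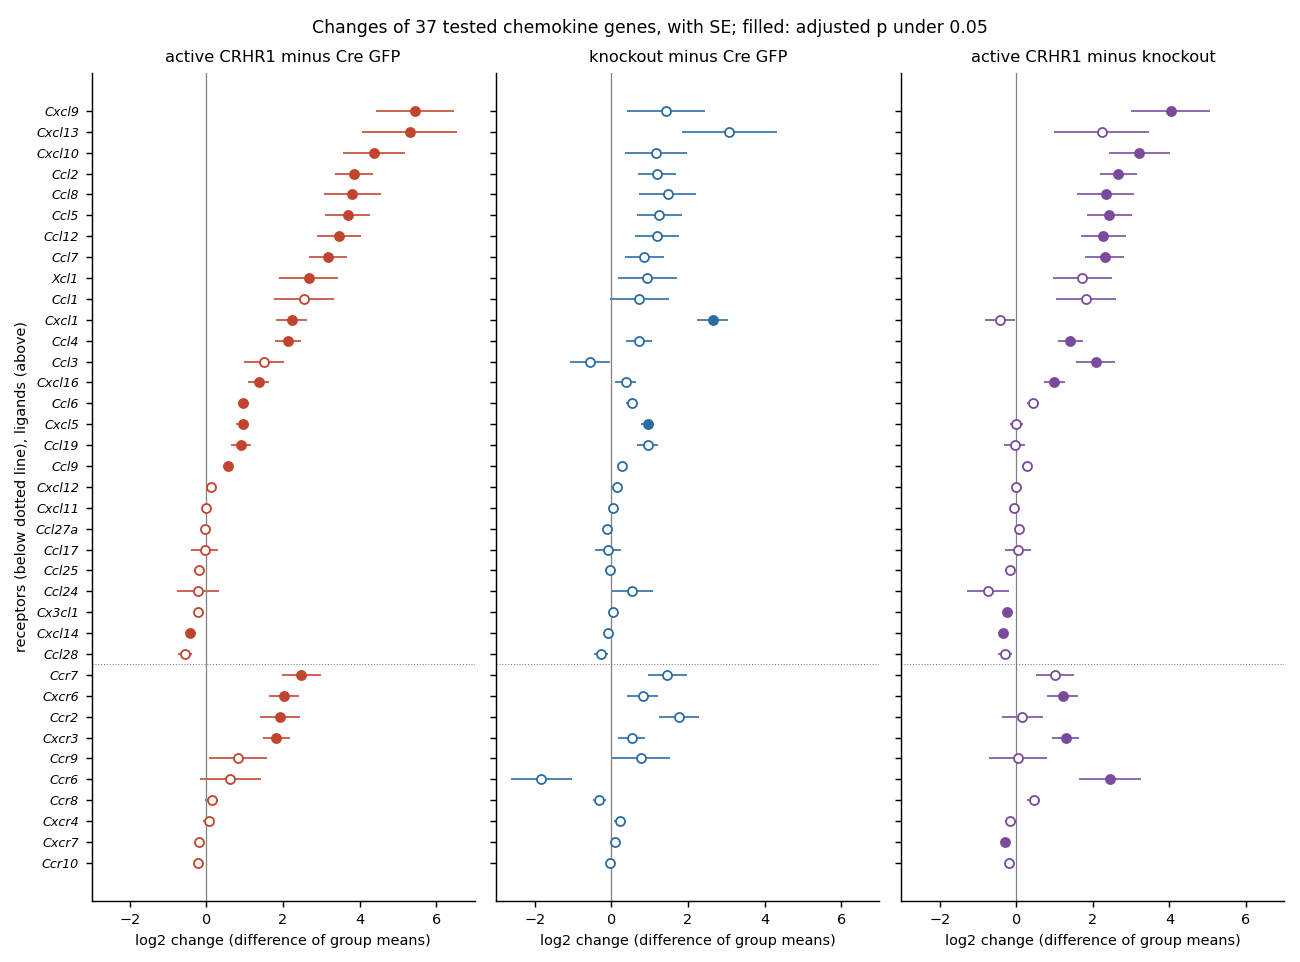
Differences of group means (log2, with SE of the fit) for 37 tested chemokine genes, ligands above and receptors below the dotted line, for active CRHR1 minus Cre GFP, knockout minus Cre GFP and active CRHR1 minus knockout. Filled points have a limma adjusted p under 0.05: 21 in the first panel, 2 in the second and 16 in the third. Cxcl1 and Ccr2 had no Cre GFP array above background, so their points against Cre GFP are fitted values and not measured folds.

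The CXCR3 ligands, which are induced by interferon gamma and attract activated T cells and natural killer cells, were higher in 2 of 3. Cxcl9 had levels of 1.57, -2.07, 1.08, 1.99 and 1.78 in active CRHR1, -4.81, -4.44, -1.06, -3.89 and -1.60 in knockout, and -5.39, -1.31, -5.35, -5.74 and -5.11 in Cre GFP bulbs. Active CRHR1 array 2 fell below Cre GFP array 2, and the other 4 active CRHR1 arrays lay above every other array. Cxcl9 was higher by 5.45 ± 1.02 (log2, SE, adjusted p = 0.00512). Cxcl10 had levels of 4.49, 1.59, 2.45, 3.47 and 3.78 in active CRHR1, -0.64, -2.16, 1.52, -0.35 and 1.37 in knockout, and -1.01, -0.30, 0.51, -2.67 and -2.64 in Cre GFP bulbs. It was higher by 4.38 ± 0.80 (adjusted p = 0.00440) with no overlap. Within Cre GFP bulbs the slide 2 arrays 4 and 5 were the lowest, and with slide as a block the change was 5.81 (adjusted p = 0.00441). A second probe of Cxcl9 gave 4.78 and a second one of Cxcl10 gave 3.23, this last probe being above background on 4 active CRHR1 and 0 other arrays. The probe named Cxcl11 had levels of 7.76, 7.92, 7.97, 8.00 and 7.94 in active CRHR1, 7.88, 8.04, 7.90, 8.11 and 7.99 in knockout, and 8.08, 8.05, 7.98, 7.81 and 7.76 in Cre GFP bulbs (change -0.02 ± 0.08, adjusted p = 0.898). The groups overlapped, and with its shared sequence the probe does not report on this ligand. Its second probe, also above background everywhere, gave 0.32.

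The ligands of CCR2, which draw monocytes out of the blood, were all higher: 4 of 4 were called. Ccl2 had levels of 2.85, 0.14, 0.67, 1.21 and 1.68 in active CRHR1, -1.90, -1.96, -0.46, -1.87 and -0.58 in knockout, and -2.55, -2.02, -1.78, -3.04 and -3.32 in Cre GFP bulbs. It was higher by 3.85 ± 0.49 (adjusted p = 0.000394), and every active CRHR1 array lay above every knockout and Cre GFP array. Ccl7 had levels of 1.02, -2.21, -0.76, -0.46 and -0.02 in active CRHR1, -3.25, -3.44, -1.92, -3.13 and -2.24 in knockout, and -3.64, -3.36, -2.78, -4.26 and -4.25 in Cre GFP bulbs. Its change was 3.17 ± 0.50 (adjusted p = 0.00161), without overlap with Cre GFP but with active CRHR1 array 2 inside the knockout range. Ccl12, found in mice and not in humans, had levels of 3.38, 1.15, 2.57, 2.31 and 2.82 in active CRHR1, -0.09, -1.31, 1.63, -0.48 and 1.11 in knockout, and -0.96, -0.48, 0.15, -1.69 and -2.08 in Cre GFP bulbs (change 3.46 ± 0.58, adjusted p = 0.00235). Ccl8, which in the mouse also acts through CCR8, had levels of 1.92, -1.13, 2.50, 2.23 and 1.47 in active CRHR1, -1.52, -1.16, -0.08, -1.50 and -0.42 in knockout, and -2.31, 0.19, -3.63, -3.28 and -3.02 in Cre GFP bulbs. Its change was 3.81 ± 0.75 (adjusted p = 0.00682), and the groups overlapped through active CRHR1 array 2, which was low, and Cre GFP array 2, which was high. With slide as a block the 4 genes were higher by 4.50 (Ccl2), 3.77 (Ccl7), 4.33 (Ccl12) and 4.54 (Ccl8), with adjusted p between 0.0023 and 0.0229.

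Of 5 further CC ligands that attract T cells and macrophages, Ccl3, Ccl4, Ccl5, Ccl6 and Ccl9, 4 were higher. Ccl5 had levels of 3.88, 1.62, 2.29, 3.46 and 3.79 in active CRHR1, 0.16, 0.11, 1.53, 0.12 and 0.96 in knockout, and -0.53, 1.46, -1.14, -1.64 and -1.54 in Cre GFP bulbs. It was higher by 3.68 ± 0.59 (adjusted p = 0.00168), and again Cre GFP array 2 stood above the rest of its group. Ccl4 had levels of -0.62, -1.73, -1.92, -1.08 and -1.04 in active CRHR1, -3.29, -3.17, -2.19, -2.91 and -1.85 in knockout, and -3.13, -3.37, -2.75, -3.93 and -3.85 in Cre GFP bulbs (change 2.13 ± 0.33, adjusted p = 0.00129). Ccl3 had levels of -2.90, -3.04, -3.88, -3.10 and -3.26 in active CRHR1, -6.84, -5.19, -4.89, -5.03 and -4.57 in knockout, and -4.48, -4.33, -3.90, -6.81 and -4.19 in Cre GFP bulbs. The active CRHR1 arrays were all above the others, yet the Ccl3 change of 1.51 ± 0.52 missed the threshold (adjusted p = 0.0833). With another background correction the Ccl3 change was smaller, 0.61, and passed (adjusted p = 0.0107). Ccl6 and Ccl9, rodent chemokines that act on CCR1, changed less. Ccl6 had levels of 0.12, -0.67, -0.07, 0.25 and -0.05 in active CRHR1, -0.90, -0.36, -0.61, -0.46 and -0.29 in knockout, and -0.99, -1.03, -1.23, -0.95 and -1.05 in Cre GFP bulbs (change 0.97 ± 0.16, adjusted p = 0.00169). Ccl9 had levels of -1.22, -1.73, -1.41, -0.96 and -1.38 in active CRHR1, -1.82, -1.75, -1.41, -1.66 and -1.49 in knockout, and -1.71, -1.94, -1.97, -1.81 and -2.11 in Cre GFP bulbs (change 0.57 ± 0.13, adjusted p = 0.0164). Leaving out active CRHR1 array 1 or Cre GFP array 5 ended the Ccl9 call (adjusted p up to 0.0502), as did slide as a block (0.0719).

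Of the 5 ligands of CXCR2, the neutrophil receptor, only Cxcl1 and Cxcl5 were tested, and both were higher. Cxcl1 had levels of -4.14, -5.73, -5.94, -5.03 and -4.61 in active CRHR1, -5.01, -4.57, -3.90, -5.34 and -4.47 in knockout, and -6.63, -7.72, -6.46, -7.59 and -8.16 in Cre GFP bulbs. With 0 Cre GFP arrays above background, its change is given as a bound, at least 1.83-fold (adjusted p = 0.00398). That bound holds for the main processing only, and with another background correction the log2 change was 0.41 (adjusted p = 0.0356). Cxcl5 had levels of -0.13, -0.06, -0.75, -0.70 and -0.32 in active CRHR1, -0.52, -0.47, -0.19, -0.66 and -0.11 in knockout, and -1.70, -1.57, -1.33, -0.96 and -1.13 in Cre GFP bulbs. Cxcl5 was higher by 0.95 ± 0.17 (adjusted p = 0.00412) without overlap, but with slide as a block by 0.66 (adjusted p = 0.0907). Neither of the receptors for these ligands was tested, Cxcr1 being above background on 0 arrays and Cxcr2 on 1. Of 8 tested neutrophil markers 0 were called in active CRHR1 against Cre GFP bulbs.

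The remaining CXC and CX3C ligands moved in both directions. Cxcl13, which attracts B cells through CXCR5, had levels of 1.48, -4.37, 1.36, -1.54 and -2.20 in active CRHR1, -2.94, -5.17, -1.49, -3.17 and -3.64 in knockout, and -7.75, -4.49, -3.27, -8.15 and -8.14 in Cre GFP bulbs. This was the widest spread within groups of any tested member in active CRHR1 and in Cre GFP bulbs. Its change of 5.31 ± 1.23 (adjusted p = 0.0173) did not pass once active CRHR1 array 1 or Cre GFP array 5 was omitted (adjusted p up to 0.0535). Only 2 Cre GFP arrays were above background for Cxcl13, and with another background correction its change was 2.77 (adjusted p = 0.0338). Cxcl16, a membrane-bound ligand of CXCR6, had levels of -0.14, -1.98, -0.72, -0.48 and -0.43 in active CRHR1, -1.82, -1.72, -1.34, -2.04 and -1.81 in knockout, and -2.45, -1.71, -2.01, -2.29 and -2.15 in Cre GFP bulbs. It was higher by 1.37 ± 0.28 (adjusted p = 0.00792) on 4 arrays, while active CRHR1 array 2 lay within the Cre GFP range. Cxcl14, a chemokine made by neurons as well as epithelia, was the only ligand called lower. Its levels were 3.84, 4.04, 3.87, 4.08 and 3.88 in active CRHR1, 4.36, 4.17, 4.17, 4.38 and 4.38 in knockout, and 4.48, 4.61, 4.19, 4.29 and 4.30 in Cre GFP bulbs. It fell by 0.43 on the log2 scale (SE 0.09, adjusted p = 0.00792) without overlap, but with slide as a block the change was -0.35 (adjusted p = 0.106). Cx3cl1, the neuronal ligand of the microglial receptor Cx3cr1, had levels of 5.95, 6.12, 6.10, 6.21 and 6.11 in active CRHR1, 6.37, 6.27, 6.24, 6.36 and 6.53 in knockout, and 6.17, 6.35, 6.31, 6.34 and 6.41 in Cre GFP bulbs (change -0.22 ± 0.07, adjusted p = 0.0719). Cxcl12, which guides neuronal precursors and leukocytes through CXCR4, had a change of 0.13 ± 0.11 (adjusted p = 0.447).

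Of 8 tested ligands in the rest of the CC and XC families, 2 were called, both close to the threshold. Xcl1, made by activated T and natural killer cells, had levels of -2.81, -7.33, -4.58, -4.18 and -4.09 in active CRHR1, -6.29, -6.27, -5.54, -7.92 and -5.59 in knockout, and -7.00, -7.96, -5.21, -8.06 and -8.09 in Cre GFP bulbs. Its change of 2.67 ± 0.77 (adjusted p = 0.0470) was lost in 11 of 15 omissions of a single array, with slide as a block (0.0740) and without knockout arrays 2 and 5 (0.0590). Xcl1 was above background on 1 Cre GFP array, and with another background correction its change was 0.62 (adjusted p = 0.0560). Ccl19, the CCR7 ligand of lymphoid stroma, had levels of 0.37, -1.30, -0.29, -0.13 and -0.19 in active CRHR1, -0.36, -0.44, 0.21, -0.46 and -0.28 in knockout, and -1.00, -0.63, -1.58, -1.41 and -1.44 in Cre GFP bulbs. Its change of 0.90 ± 0.26 (adjusted p = 0.0499) was lost in 10 of 15 omissions, with slide as a block (0.0978) and without knockout arrays 2 and 5 (0.0629). Ccl1, a CCR8 ligand of activated T cells, had levels of -3.38, -7.07, -4.40, -3.20 and -3.63 in active CRHR1, -7.14, -7.72, -5.22, -6.01 and -4.65 in knockout, and -8.26, -5.38, -7.21, -7.07 and -6.49 in Cre GFP bulbs. Its change of 2.55 ± 0.78 missed the threshold (adjusted p = 0.0578), and a second Ccl1 probe gave 0.49. Active CRHR1 array 2 was low for Xcl1, Ccl19 and Ccl1. The CCR10 ligand Ccl28 had levels of -4.71, -4.82, -4.37, -4.16 and -4.07 in active CRHR1, -4.24, -4.62, -3.79, -4.30 and -3.73 in knockout, and -3.95, -3.86, -4.09, -3.78 and -3.68 in Cre GFP bulbs (change -0.55 ± 0.18, adjusted p = 0.0734). The others had changes between -0.21 and -0.04: the eotaxin Ccl24, the thymic chemokine Ccl25, the CCR4 ligand Ccl17 and the CCR10 ligand Ccl27a. For Ccl24 the active CRHR1 mean included array 2 at -1.14, which stood above the rest of its group. The other active CRHR1 arrays lay between -4.92 and -3.99, below every Cre GFP array (-3.80 to -3.29).

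**Figure D3:**
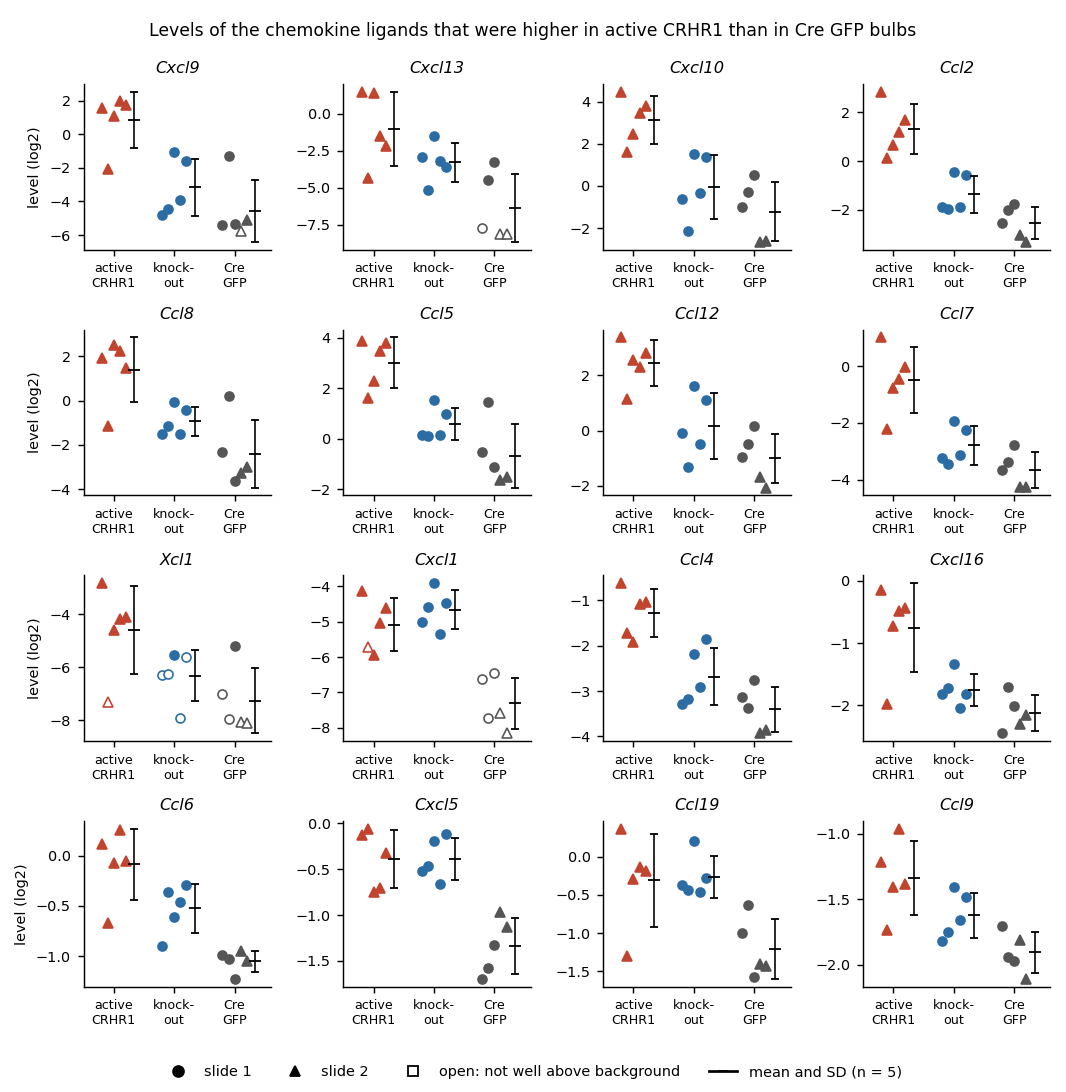
Levels (log2 signal minus the array's 75th percentile) of the 16 ligands that were higher in active CRHR1 than in Cre GFP bulbs, by array, with circles for slide 1, triangles for slide 2 and open symbols for arrays not well above background. Bars give mean and SD (n = 5), and each panel has its own axis. Active CRHR1 array 2, the second red triangle of a panel, was the lowest of its group for 13 of the 16 ligands.

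Receptors moved less often than ligands in count, 4 of 11 against 17 of 27, a difference that was not tested. Cxcr3, the receptor of Cxcl9 and Cxcl10 on activated T cells, had levels of -1.43, -3.12, -1.78, -1.81 and -1.94 in active CRHR1, -3.58, -3.65, -2.47, -3.53 and -3.29 in knockout, and -3.98, -2.74, -4.36, -3.97 and -4.15 in Cre GFP bulbs (change 1.82 ± 0.35, adjusted p = 0.00579). Cxcr6, the receptor of Cxcl16, had levels of -1.88, -3.66, -1.76, -2.00 and -1.96 in active CRHR1, -4.10, -3.34, -2.46, -3.77 and -3.63 in knockout, and -4.36, -3.25, -4.45, -4.81 and -4.52 in Cre GFP bulbs (change 2.03 ± 0.40, adjusted p = 0.00675). In both, active CRHR1 array 2 lay below Cre GFP array 2, and these were the only arrays that overlapped. Ccr7, by which T cells and dendritic cells home to lymph nodes, had levels of -0.61, -2.47, -2.28, -1.38 and -1.99 in active CRHR1, -3.14, -3.05, -1.67, -3.29 and -2.65 in knockout, and -4.03, -2.51, -5.38, -4.32 and -4.89 in Cre GFP bulbs. It was higher by 2.48 ± 0.50 (adjusted p = 0.00800), the only receptor without overlap, with active CRHR1 array 2 at -2.47 next to Cre GFP array 2 at -2.51. With slide as a block the changes were 2.04 for Cxcr3, 2.41 for Cxcr6 and 2.86 for Ccr7 (adjusted p between 0.0229 and 0.0335).

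Ccr2, the receptor of inflammatory monocytes, had levels of -4.54, -6.29, -4.97, -5.24 and -5.01 in active CRHR1, -3.70, -5.51, -5.11, -7.11 and -5.40 in knockout, and -7.92, -5.95, -7.55, -7.14 and -7.08 in Cre GFP bulbs. It was at least 1.68-fold higher in active CRHR1 bulbs (adjusted p = 0.0389), with 0 Cre GFP arrays above background. That call was lost in 9 of 15 single omissions, with slide as a block (adjusted p = 0.151), with another background correction (0.256) and without knockout arrays 2 and 5 (0.0538). The gut-homing receptor Ccr9 had levels of -2.10, -2.93, -4.65, -2.34 and -2.70 in active CRHR1, -2.16, -5.56, -1.86, -2.08 and -3.26 in knockout, and -2.67, -2.46, -5.36, -3.51 and -4.81 in Cre GFP bulbs (change 0.82 ± 0.76, adjusted p = 0.505). Ccr9 was low on active CRHR1 array 3, knockout array 2 and Cre GFP arrays 3 and 5, and the groups overlapped. Cxcr4, the CXCL12 receptor, had levels of -2.46, -2.47, -2.35, -2.52 and -2.33 in active CRHR1, -2.42, -2.51, -2.19, -2.09 and -2.15 in knockout, and -2.78, -2.58, -2.72, -2.47 and -1.89 in Cre GFP bulbs (change 0.06 ± 0.14, adjusted p = 0.811). Cxcr7 (Ackr3 in RefSeq), which takes up CXCL12 without G protein signalling, had a change of -0.20 ± 0.06 (adjusted p = 0.0699). Ccr10, a skin-homing receptor, had levels of -4.16, -4.13, -3.93, -4.15 and -4.24 in active CRHR1, -3.86, -3.96, -3.81, -3.93 and -4.06 in knockout, and -3.88, -3.70, -3.91, -4.01 and -3.95 in Cre GFP bulbs (change -0.23 ± 0.08, adjusted p = 0.0739). The groups of Cxcr4 and Ccr10 overlapped. Ccr8, found on regulatory T cells, had a change of 0.14 ± 0.17 (adjusted p = 0.618).

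**Figure D4:**
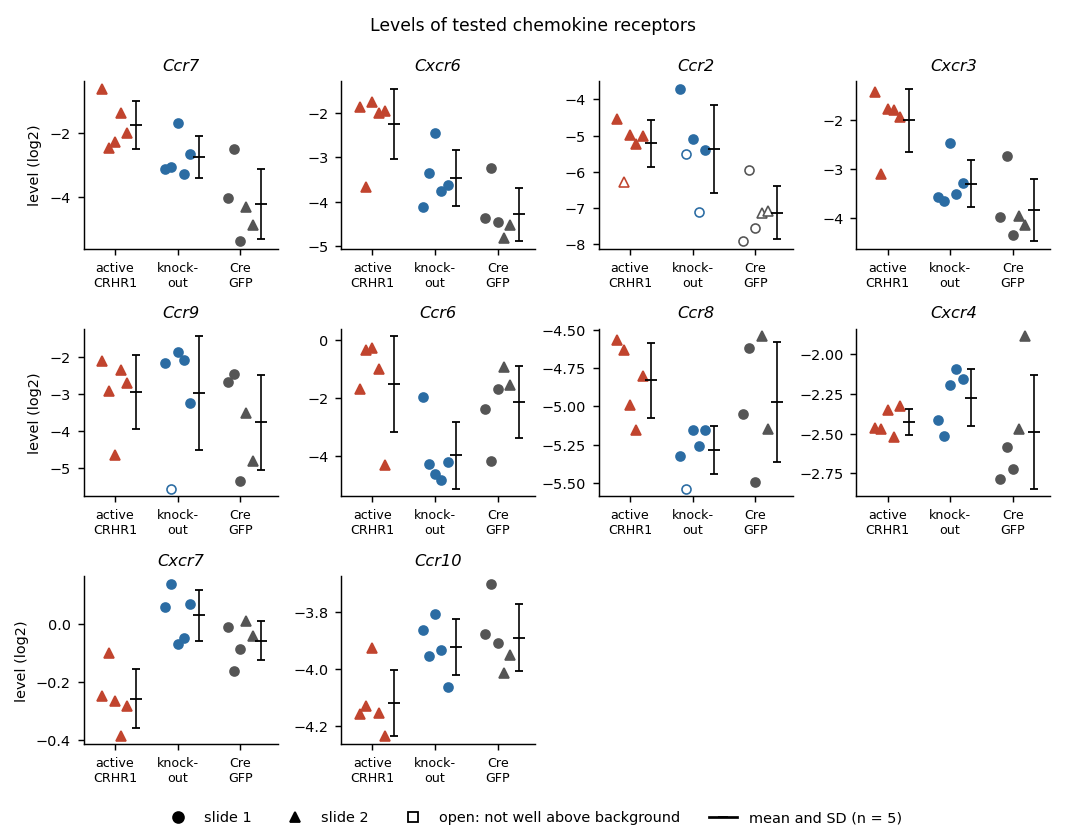
Levels (log2 signal minus the array's 75th percentile) of 10 tested receptors by array, in active CRHR1, knockout and Cre GFP bulbs, with circles for slide 1, triangles for slide 2, open symbols for arrays not well above background, and bars for mean and SD (n = 5). Ccr7, Cxcr6, Ccr2 and Cxcr3 were higher in active CRHR1 than in Cre GFP bulbs, Ccr9 dropped on 4 arrays, and Ccr6 had 1 high knockout array and 1 low active CRHR1 array.

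Set side by side, ligands and their receptors were not always both measured. Cxcl9 and Cxcl10 were called together with Cxcr3, Cxcl16 with Cxcr6, Ccl19 with Ccr7, and Ccl2, Ccl7 and Ccl12 with Ccr2. For Cxcl13 the receptor Cxcr5 was above background on only 2 arrays, 1 of active CRHR1 and 1 of Cre GFP bulbs. For Xcl1 the receptor Xcr1 was above background on 0 arrays. Ccl4, Ccl5, Ccl6 and Ccl9 were called, whereas their receptor Ccr1 was not tested. By position, the run at chr11:81850650-81990227 had 4 of 5 tested genes higher, that at chr11:83339296-83478111 had 4 of 5, that at chr5:91190490-91334593 had 2 of 2, that at chr5:92752191-92788626 had 2 of 3, and the receptor run on chromosome 9 had 2 of 4. Over all runs 14 of 22 tested members were higher, and among members lying alone 6 of 16 were, which was not tested. Of all genes tested in active CRHR1 against Cre GFP bulbs, 3.9% were higher.

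The active CRHR1 mice differed among themselves, and the members did so together. Active CRHR1 array 1 was the highest of its group for 11 of the 16 ligands and 3 of the 4 receptors called higher, and array 2 was the lowest for 13 of the ligands and all 4 receptors. In knockout bulbs array 3 was the highest for 13 of the ligands and 3 of the receptors. In Cre GFP bulbs array 2 was the highest for all 4 receptors and 5 ligands, and array 3 for 8 ligands. The lowest array was less uniform in knockout and Cre GFP bulbs: for the ligands it was knockout array 1, 2 or 4, and Cre GFP array 1, 3, 4 or 5.

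Markers of lymphocytes were set beside these differences. Of 11 tested T cell markers 6 were higher in active CRHR1 than in Cre GFP bulbs, among them Cd2 (2.32 ± 0.51, adjusted p = 0.0131), Cd3d (2.80 ± 0.62, adjusted p = 0.0140) and Cd5 (1.79 ± 0.42, adjusted p = 0.0175), components of T cell signalling and adhesion. Their summed level on the linear scale, where 1 is the array's 75th percentile, was 7.10, 3.88, 6.33, 6.77 and 5.71 in active CRHR1, between 3.88 and 5.12 in knockout, and between 3.91 and 4.74 in Cre GFP bulbs. All 4 tested markers of natural killer and cytotoxic cells were higher, among them the granzymes Gzma (2.85 ± 0.57, adjusted p = 0.00720) and Gzmb (3.41 ± 0.70, adjusted p = 0.00836). Their sum was 4.66, 0.792, 1.48, 2.57 and 1.86 in active CRHR1, between 0.593 and 0.795 in knockout, and between 0.484 and 0.890 in Cre GFP bulbs. Active CRHR1 array 2, low in chemokines, was thus within the range of the Cre GFP arrays for natural killer markers and just below it for T cell markers. Array 1 had the highest of both sums in that group. The other groups followed the chemokine order only in part. Knockout array 3 had the highest natural killer sum (0.795) but a T cell sum of 4.62, below array 5 at 5.12. Cre GFP array 2 had the highest of both sums, and Cre GFP array 3, the highest for 8 ligands, had the lowest of both (3.91 and 0.484). The median log2 change was 0.67 over T cell and 1.96 over natural killer and cytotoxic markers, against -0.07 over all genes. The T cell markers Cd8a and Cd8b1 were above background on 1 and 2 active CRHR1 arrays, and the natural killer receptor Klrk1 on none.

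**Figure D5:**
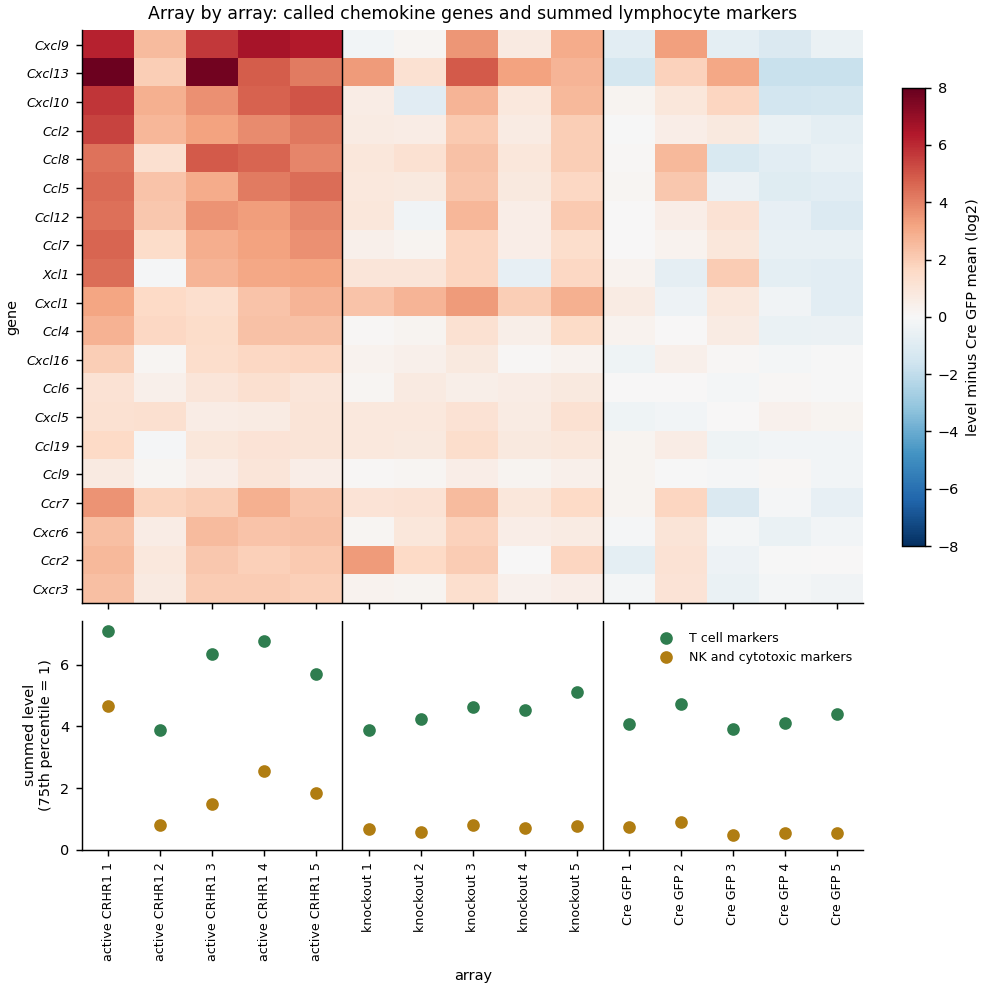
Top, level of each of the 20 members higher in active CRHR1 than in Cre GFP bulbs on each of the 15 arrays, minus the gene's Cre GFP mean (log2, colour), with groups divided by lines. Bottom, summed linear level of 11 T cell and 4 natural killer and cytotoxic markers on the same arrays. Active CRHR1 array 2 is the palest of its group for most genes and has T cell and cytotoxic sums of 3.88 and 0.792.

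Markers of other cell types were also examined. Of 8 monocyte and macrophage markers 2 were higher (Plac8, 3.30 ± 0.40, adjusted p = 0.000343, and Ms4a7, 0.93 ± 0.23, adjusted p = 0.0250), of 4 dendritic cell markers 1 (Itgax, 2.82 ± 0.33, adjusted p = 0.000305), of 3 B cell markers 1 (Cd79b, 0.88 ± 0.19, adjusted p = 0.0111). Of 8 microglial markers 3 were higher and 1 lower. Endothelial (6) and blood (3) markers had 0 calls, and of 6 astrocyte markers 1 was higher, Gfap. Of 10 olfactory bulb markers 3 were lower, with changes of -0.30 for Meis2, -0.29 for Calb2 and -0.21 for Pbx3. The sum over all 10 olfactory bulb markers, in which bright probes weigh most, was lower without overlap. It was between 269.9 and 321.0 in active CRHR1 and between 324.7 and 380.6 in Cre GFP bulbs. Summed dendritic cell markers ranged from 0.944 to 1.60 in active CRHR1 and from 0.706 to 0.882 in Cre GFP bulbs, and summed B cell markers from 0.2393 to 0.383 in active CRHR1 and from 0.184 to 0.2388 in Cre GFP bulbs. Neither sum overlapped between the groups, and active CRHR1 array 2 was the lowest of its group in both. Summed monocyte and macrophage markers ranged from 24.4 to 26.5 in active CRHR1 and from 20.4 to 23.4 in Cre GFP bulbs, and summed microglial markers from 76.4 to 92.3 in active CRHR1 and from 56.2 to 81.0 in Cre GFP bulbs. The part of any of these cells in the chemokine changes was not tested.

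Genes that work upstream of chemokines, in interferon gamma and NF-kB signalling, were higher in 14 of 21 tested, and 0 were lower, with a median log2 change of 0.84. Ifng, the interferon of T and natural killer cells, was above background on all 5 active CRHR1 arrays and on 0 knockout and 0 Cre GFP arrays. The interferon regulators Irf8 (2.07 ± 0.23, adjusted p = 0.000268), Irf1 (2.42 ± 0.34, adjusted p = 0.000816) and Irf7 (3.55 ± 0.51, adjusted p = 0.000853), and the cytokine Tnf (3.60 ± 0.48, adjusted p = 0.000550) were higher. Of 16 tested genes of the chemokine system outside the naming rule, 4 were higher and 0 lower. They were Rac2 (1.68 ± 0.20, adjusted p = 0.000326) and Dock2 (1.01 ± 0.14, adjusted p = 0.000741), which drive leukocyte migration downstream of chemokine receptors, the kinase gene Pik3cg (0.72 ± 0.11, adjusted p = 0.00139), and the chemerin receptor Ccrl2 (0.69 ± 0.18, adjusted p = 0.0348). Cx3cr1 had a change of 0.17 (adjusted p = 0.428), and the scavenger receptor Ackr1 one of 0.03 (adjusted p = 0.882).

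In knockout against Cre GFP bulbs, a comparison that also spans both strains and shares the Cre GFP arrays with the one above, 2 of 38 members were called, where 3.39% of all genes tested were (1.96% higher and 1.43% lower). Both were CXCR2 ligands. Cxcl1, with the array values above, was at least 2.46-fold higher (adjusted p = 0.00370), and Cxcl5 was higher by 0.95 ± 0.17 (adjusted p = 0.0102). Neither overlapped between the groups. With another background correction the log2 change of Cxcl1 was 0.57 (adjusted p = 0.0112), smaller than that bound. In 5 members, 4 of them higher, the groups did not overlap, where 5.53% of all genes did not (3.09% higher). With slide as a block both kept their calls, Cxcl1 with an adjusted p of 0.0229 and Cxcl5 with a change of 1.14 (adjusted p = 0.00797). Among slide 1 arrays alone the adjusted p was 0.0597 for Cxcl1 and 0.0281 for Cxcl5. With knockout arrays 2 and 5 omitted, a choice made after seeing the data, Cxcl1 kept its call (adjusted p = 0.0313) and Cxcl5 did not (0.88, adjusted p = 0.0611).

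The median log2 change of tested ligands in knockout bulbs was 0.72 and of receptors 0.54, against 0.0037 over all genes. Ccl19 had a change of 0.95 ± 0.26 without overlap and missed the threshold (adjusted p = 0.0673), as did Ccl6 with 0.53 ± 0.16 (adjusted p = 0.0796) and Ccr2, at least 1.51-fold (adjusted p = 0.0849). Ccr2 was called without knockout array 4 and Ccr7 without Cre GFP array 2 (adjusted p = 0.0314 for Ccr2 and 0.0338 for Ccr7). Ccl27a, the fifth member without overlap, had a change of -0.11 ± 0.05 (adjusted p = 0.192). All 8 tested neutrophil markers had positive changes and 0 were called, with a median of 1.38 and summed levels between 3.21 and 15.2 in knockout bulbs, against 2.30 to 4.38 in Cre GFP bulbs. The S100a9 gene, an abundant neutrophil transcript, had a change of 1.45 (adjusted p = 0.0639). Summed monocyte and macrophage markers were 88.0 on knockout array 5 and between 18.9 and 27.8 on the other 4 knockout arrays. The B cell receptor component Cd79b was higher (0.95, adjusted p = 0.0152), and of 6 astrocyte markers 2 were. The part of these cells in the Cxcl1 and Cxcl5 changes was not tested.

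Between active CRHR1 and knockout bulbs 16 members were called, 13 higher and 3 lower, where 25.7% of all genes tested were called (9.38% higher and 16.3% lower). In 7 members, 4 of them higher, the groups did not overlap, where 18.7% of all genes did not (6.82% higher). The ligands higher in active CRHR1 bulbs were the CXCR3 ligands Cxcl9 (4.03 ± 1.02, adjusted p = 0.0143) and Cxcl10 (3.21 ± 0.80, adjusted p = 0.0134), all 4 CCR2 ligands with changes between 2.27 and 2.67, Ccl3, Ccl4 and Ccl5 with changes between 1.41 and 2.43, and Cxcl16 (1.00 ± 0.28, adjusted p = 0.0208). The Ccl8 call (adjusted p = 0.0366) was lost in 8 of 15 single omissions and with the replicate block (0.0776), and Cxcl16 was lost in 3 omissions, those of active CRHR1 arrays 1 and 5 and knockout array 4. The CXCR2 ligands did not pass the test, Cxcl1 with -0.43 ± 0.40 (adjusted p = 0.437) and Cxcl5 with -0.00 ± 0.17 (adjusted p = 0.999). Cxcl13 had a change of 2.23 ± 1.23 (adjusted p = 0.184). Lower in active CRHR1 bulbs were Cxcl14 (-0.35 ± 0.09, adjusted p = 0.0133), Cx3cl1 (-0.26 ± 0.07, adjusted p = 0.0200) and Cxcr7 (-0.29 ± 0.06, adjusted p = 0.00803), all 3 without overlap and all small. The Cxcl14 call was lost with another background correction (-0.20, adjusted p = 0.0537) and with slide as a block (-0.22, adjusted p = 0.380). Slide as a block also ended the Cxcr7 call (-0.36, adjusted p = 0.109). The Cx3cl1 difference was -0.03 with quantile normalization (adjusted p = 0.725) and -0.06 with normexp (0.367), and the call was lost with median centring (0.108), with slide as a block (0.137) and without active CRHR1 array 1 (0.0546). The highest active CRHR1 array of Cx3cl1 was at 6.21 and the lowest knockout array at 6.24. Cxcr7 had levels of -0.25, -0.10, -0.27, -0.39 and -0.28 in active CRHR1 bulbs, against 0.06, 0.14, -0.07, -0.05 and 0.07 in knockout bulbs.

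The receptors higher in active CRHR1 than in knockout bulbs were Cxcr3 (1.29 ± 0.35, adjusted p = 0.0190), Cxcr6 (1.21 ± 0.40, adjusted p = 0.0403) and Ccr6 (2.45 ± 0.80, adjusted p = 0.0394). Ccr6, the receptor of Ccl20 on B cells and a subset of T cells, had levels of -1.67, -0.35, -0.27, -1.00 and -4.29 in active CRHR1, -1.94, -4.26, -4.61, -4.82 and -4.19 in knockout, and -2.37, -4.18, -1.68, -0.93 and -1.54 in Cre GFP bulbs. Its values fell into a high and a low range in all 3 groups, with knockout array 1 high, active CRHR1 array 5 low and Cre GFP array 2 low. The Cxcr6 call was lost in 9 of 15 single omissions and with the replicate block (0.0694), and the Cxcr3 call without active CRHR1 array 1 (0.0510). The Ccr6 call was lost in 8 of 15 single omissions and with slide as a block (0.95, adjusted p = 0.677). With slide as a block 4 ligands and 0 receptors were called in this comparison: Ccl2 by 3.74 (adjusted p = 0.0345), Cxcl10 by 5.60 (0.0345), Ccl5 by 3.95 (0.0480) and Ccl4 by 2.21 (0.0485). In that fit both groups are linked only through the Cre GFP arrays, since no slide held active CRHR1 and knockout arrays together. Without knockout arrays 2 and 5, 8 ligands and 0 receptors were called. The calls that ended were those of Ccl5 (0.0527), Cx3cl1 (0.0706), Cxcl16 (0.0802) and Ccl8 (0.101) among the ligands, and of Cxcr7 (0.0549), Cxcr3 (0.0885), Cxcr6 (0.123) and Ccr6 (0.140) among the receptors. Beside the members, 10 of 21 interferon gamma and NF-kB genes, 3 of 11 T cell markers and all 4 natural killer and cytotoxic markers were higher in active CRHR1 than in knockout bulbs. Of 16 genes of the chemokine system outside the naming rule 4 were higher and 3 lower, the lower ones including the platelet chemokine Pf4 (-0.81, adjusted p = 0.00210) and the scavenger receptor Ackr2 (-0.62, adjusted p = 0.00975). Their part in the chemokine differences was not tested.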

How the data were processed

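One-colour Agilent arrays measured RNA of 15 bulbs, 5 per group. Per the file headers, Agilent Feature Extraction 10.7.3.1 made the processed intensity of each spot, with background subtraction, and set the flags for spots well above background. The authors' deposited series values are the same signal as a ratio to the array's median, and were an alternative. Control spots were left out, each array was scaled to its 75th percentile on the log2 scale, and repeat spots were averaged. Spots flagged as outliers were left out of that average, unless all spots of a probe on an array were flagged. In that case they were kept. With 59305 non-control spots for 55681 probes, most probes had no repeat spot, so their outlier spots were kept. No spot was saturated. The filter asked for 4 or more of the 5 arrays in one of the groups well above background, and passed 33965 of 55681 probes, or 27336 genes. All 3 comparisons were fitted over 15 arrays with limma 3.58.1 (lmFit, eBayes) in R 4.3.3, with Benjamini-Hochberg adjustment over all genes, and steps were tested on simulated data. The number of arrays limits the precision.

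Members, gene lists and tests were chosen with earlier results of these data known. Every array is given for members called with an absolute log2 change of at least 1 and for up to 4 members of smallest p per role group. One tested receptor and 1 marker gene enter the counts and are not reported here by name. For other lists up to 4 genes of smallest p are named. Ackr1, Cx3cr1, Gfap, Ifng, S100a9 and the undetected markers fall outside that rule and were picked with their values known. A gene with 0 arrays above background in a group is given a bound, the mean of the brighter group over that of the dim group, each dim array set to its own signal or to the lowest one above background, whichever is higher. Such a bound holds for the main processing only. RefSeq (GRCm38.p6) matched 53 members and renamed 1, Cxcr7 to Ackr3. Alternatives were other normalizations, filters, probe choices, slide as a block and within each slide, the replicate block, array weights, an intensity trend, and each array left out. Leaving out knockout arrays 2 and 5 together was chosen after seeing the data. Replicate numbers did not pair the samples: correlations of same-numbered arrays' deviations ran from -0.22 to 0.40. Python 3.11.15, pandas and matplotlib were used for tables and figures.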

Additional observations from a re-analysis of the deposited data

Results flagged for a closer look

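In 10 of 114 groups of 5 arrays, an end array stood apart from the other 4 of its group by Dixon's criterion, which chance alone meets in about 1 of 20 groups. Active CRHR1 array 2 accounted for 4 of these. It was low for Cxcl9, at -2.07 where the others lay between 1.08 and 1.99, for Ccl8, at -1.13 where the others lay between 1.47 and 2.50, and for Cxcr6, at -3.66 where the others lay between -2.00 and -1.76. For the eotaxin Ccl24 the same array was high instead, at -1.14 where the others lay between -4.92 and -3.99. Cre GFP array 2 was high for Cxcl9, at -1.31 where the others lay between -5.74 and -5.11, and for Cxcr3, at -2.74 where the others lay between -4.36 and -3.97. For Ccl3, knockout array 1 was low at -6.84 (others -5.19 to -4.57) and Cre GFP array 4 at -6.81 (others -4.48 to -3.90), the only arrays on which this gene was not well above background. Knockout array 1 was high for Ccr6, at -1.94 where the others lay between -4.82 and -4.19, and knockout array 3 was high for Ccl19, at 0.21 where the others lay between -0.46 and -0.28.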

How the results depend on the processing

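Of 39 calls on single members, 0 changed sign under any alternative. Omitting single arrays kept a call in 521 cases and lost it in 64, and the other alternatives kept 485 and lost 81. Leaving out each array in turn gave 13 to 19 ligands and 3 to 5 receptors for active CRHR1 against Cre GFP, 2 to 4 and 0 to 1 for knockout against Cre GFP, and 9 to 17 and 1 to 5 for active CRHR1 against knockout, with 1187 to 3651, 431 to 955 and 4147 to 7890 of all genes. With slide as a fixed block 21 of the 39 calls remained, and the comparisons in that order gave 1014, 383 and 675 genes, with 4 ligands and 0 receptors in the last. Within slide 2, 5 ligands, 0 receptors and 327 genes were called for active CRHR1 against Cre GFP, and within slide 1, 1 ligand and 114 genes for knockout against Cre GFP. As a random block, slide gave 10618 genes in active CRHR1 against knockout. Arrays centred on their median, which shifts changes by -0.10, -0.05 and -0.04, gave 1272, 403 and 4245 genes, of which 55.9%, 33.0% and 48.0% were higher, where the 75th percentile gave 2342, 927 and 7016 with 45.5%, 57.7% and 36.6% higher. The authors' scaled values gave 1296, 458 and 4388 (53.0%, 33.4% and 47.7% higher). Both cost the calls of Ccl19, Ccl9, Ccr2 and Xcl1 in active CRHR1 against Cre GFP. Without a filter on dim probes there were 1240 and 389 genes against Cre GFP and 2 receptors in active CRHR1 against knockout, and array weights gave 5961 and 1778 genes. For knockout against Cre GFP, normexp with quantile normalization gave 1557 genes, quantile normalization alone 1399 and a fit of these groups only 493. With normexp Cxcl1 was still called in active CRHR1 (log2 change 0.41, adjusted p = 0.0356) and in knockout bulbs (0.57, adjusted p = 0.0112). Ccr2 had log2 changes of 0.27 and 0.31 there and was not called. All 4 changes are smaller than the bounds given for these genes. The replicate block gave 17, 2 and 11 ligands, 3, 0 and 2 receptors, and 1549, 558 and 5979 genes. Without knockout arrays 2 and 5, chosen after seeing the data, 1 ligand and 332 genes remained against Cre GFP, and 0 receptors and 3030 genes in active CRHR1 against knockout. The cause of these differences was not tested.

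Signals near background limit Cxcl1, Cxcl13, Ccr2, Xcl1, Ccl1 and Ccl3, and 16 members were too dim to test. Slide is partly confounded with group. Strain and Cre differ between knockout and the other mice and cannot be told apart from loss of the receptor.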
